A study of Homo sapiens with 16 samples.

Results

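The response of LNCaP cells to the cyclin-dependent kinase (CDK) inhibitor AT7519 was measured without siRNA against OGT, by comparing 2 samples given scrambled siRNA and AT7519 with 2 samples given scrambled siRNA and DMSO. These 4 of the 16 samples in the series were chosen by their labels alone, and all genes were compared. Of 60252 genes in the count table, 40417 had a count in some sample and 23830 passed the filter on low counts and were tested. LNCaP is a human prostate cancer line with luminal features. In both groups a siRNA step of 48 hours, here with the scrambled control (Scr), preceded harvest, and AT7519 at 0.5 µM or its vehicle DMSO was present for the last 4 hours. The other 12 samples carried siRNA against OGT (siOGT1 or siOGT2) or were labelled with the OGT inhibitor OSMI2, each with either agent. The labels do not state whether replicates are separate cultures. A p-value here thus rests on the spread between the 2 samples of a group, which may be technical. That spread was estimated over all 8 groups of the series, with information shared across genes. Within an agent, same-numbered samples of the Scr and siRNA arms deviated together, as set out below.

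AT7519 is a small molecule that blocks several CDKs, among them the cell-cycle kinases and CDK9. CDK9 with a cyclin T forms P-TEFb, the kinase that releases RNA polymerase II from its pause close to the start of genes, and 7SK RNA with HEXIM and LARP7 proteins keeps part of P-TEFb inactive. When synthesis of RNA is blocked for a few hours, transcripts with short lives are lost first and long-lived transcripts persist. RNA-seq values are shares of a library, so a transcript that persists takes a larger share when others are lost.

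The Scr libraries held 62420179 to 107364119 counts. Replicates correlated across genes with r of 0.991 under DMSO and 0.985 with AT7519. The median SD of a gene's log2 value between replicates was 0.0623 and 0.0921. Levels below are CPM, a gene's count scaled to a common library size with TMM factors, and they are not divided by gene length. Luminal markers were present, with KLK3, the gene of prostate-specific antigen, at 1029 and 1074 CPM under DMSO and 1123 and 1096 CPM with AT7519. Of 10 basal epithelial markers 6 were tested and 1 fell, with KRT5, KRT15, TP63 and CAV1 too low to be tested. The list took 0.013% and 0.0133% of all counts under DMSO and 0.00918% and 0.00964% with AT7519. Of 12 leukocyte markers 10 were too low to be tested, PTPRC among them. Of 10 neuroendocrine markers 5 were tested and none passed (0 at an unadjusted p under 0.05 in edgeR and 0 by DESeq2). Among 13 stromal markers 9 were tested, 4 rose and 0 fell by edgeR (1 at an unadjusted p under 0.05 and 0 by DESeq2). The list took 0.0542% and 0.0624% of all counts under DMSO and 0.0606% and 0.0811% with AT7519, most of it FN1, while COL1A2, COL6A3, DCN and THY1 were too low to be tested. The part of such cells in the results below was not tested. Each of these 4 rises (FN1, COL1A1, COL3A1 and LUM) lost its call by library size alone, and when Scr DMSO replicate 1 or Scr AT7519 replicate 2 was left out. OGT, which the siRNAs of the other arms target, stood at 274 and 263 CPM under DMSO and 256 and 314 CPM with AT7519 (log2 fold change 0.08, SE 0.13, adjusted p = 0.623). Of 23332 tested genes with a gene model, 55.0% overlap another tested gene on either strand, so reads of such a gene and its neighbour may be mixed. The strand setting of the counting was not given in the sources used here. An overlapping neighbour is named beside the first value of such a gene. No spike-in is named in the labels, so a change in the RNA content of the cells cannot be told apart from a change of single genes. Every change below is relative to the bulk of genes.

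AT7519 moved transcripts in both directions, with a split that depended on how strongly a gene was counted. At an adjusted p under 0.05 in edgeR's quasi-likelihood test with Benjamini-Hochberg adjustment, 5206 genes were higher (21.8% of tested genes) and 5866 were lower (24.6%), 46.5% in all. The terms rose and fell are used below only for genes that passed this threshold. In each such gene with printed sample values both AT7519 values lay on the same side of both DMSO values, which holds for 72.4% of tested genes. Of genes with a mean log2 CPM of 8 or more over the 4 samples, 561 of 714 rose and 34 fell, with a median log2 fold change of 0.48. At 6 to 8 the counts were 1429 and 583 of 2990 (median 0.20), and at 4 to 6 they were 1124 and 1765 of 4630 (median -0.09). Between 2 and 4, 449 rose and 1328 fell of 3018 (median -0.27). Among strongly counted genes rises were thus frequent and small, and falls were more frequent in the middle of the range. The median over all tested genes was -0.05. Upper-quartile scaling shifted the median by 0.15 and gave 6714 rises and 4730 falls. Scaling by library size alone shifted it by -0.25 and gave 3024 and 8207.

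Changes of 2-fold or more comprised 1511 rises (6.34% of tested genes) and 2782 falls (11.7%). Most of the large rises were in genes with few counts. Of the 1511, 1437 had a mean log2 CPM under 3 and 74 had 3 or more, whereas 712 of the 2782 large falls were at 3 or more. Among protein-coding genes 172 rose and 1703 fell by 2-fold or more. Of the 262 rises of 16-fold or more, 10 were in protein-coding genes, 72 in processed pseudogenes, 50 in antisense genes and 25 in the class of miscellaneous small RNAs. Of the 186 falls of that size, 64 were in protein-coding genes and 36 in long intergenic non-coding RNAs. At this end of the range the fitted fold is imprecise, since 221 tested genes had 0 counts in both AT7519 samples and 103 had 0 in both DMSO samples.

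**Figure D1:**
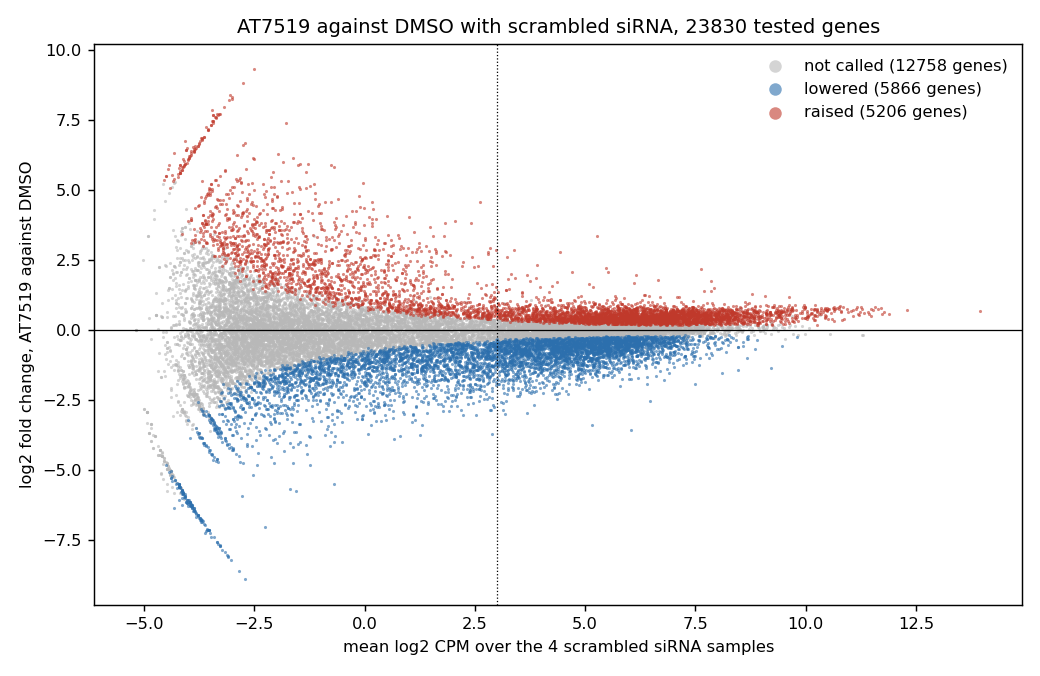
Log2 fold change of AT7519 against DMSO (vertical axis) against the mean log2 CPM over the 4 Scr samples (horizontal axis), with 1 point for each of 23830 tested genes, red where raised, blue where lowered and grey where not called. The dotted line marks a mean log2 CPM of 3. To its right the rises are mostly small, with 74 of 2-fold or more against 712 falls, and the straight lines of points at the far left include the genes with 0 counts in 1 of the groups, whose fitted fold is not a measurement of size.

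The largest rise among well counted genes that overlap no other tested gene was in CCNL1, which encodes cyclin L1, a partner of CDK11 and of splicing factors. CCNL1 stood at 95.1 and 89 CPM under DMSO and 398 and 444 CPM with AT7519 (log2 fold change 2.19, SE 0.11, adjusted p = 1.64e-11). ZC3H12A, the gene of an endonuclease that degrades inflammatory mRNAs, stood at 37.3 and 34.4 CPM under DMSO and 123 and 158 CPM with AT7519 (log2 fold change 1.97, SE 0.24, adjusted p = 3.36e-05). The rule for this set required both AT7519 samples to lie beyond both DMSO samples. EGLN2, which encodes an oxygen-sensing prolyl hydroxylase acting on HIF, went from 5.64 and 5.46 to 21.3 and 19.5 CPM (log2 fold change 1.87, SE 0.13, adjusted p = 1.27e-09). VCPKMT, the gene of a lysine methyltransferase of the ATPase VCP, went from 11 and 11.6 to 32.1 and 42.4 CPM (log2 fold change 1.72, SE 0.14, adjusted p = 1e-08). A pair of snoRNA host genes followed. SNHG15 went from 53.8 and 53.4 to 176 and 199.9 CPM (1.81, SE 0.10), and SNHG1 went from 143 and 144 to 369 and 454 CPM (1.52, SE 0.12). E4F1, the gene of a zinc finger protein with ubiquitin ligase activity, went from 55.3 and 50.7 to 110.3 and 146 CPM (1.27, SE 0.21). ZNF792, a zinc finger gene, went from 7.35 and 7.69 to 19.8 and 17.9 CPM (1.33, SE 0.15). The level filter, a mean log2 CPM of 3 or more, was taken over all 4 samples. EGLN2 and ZNF792 reached it only with the AT7519 samples included.

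Less certain rises in this set were ID3 and a few ribosomal protein genes. ID3, an inhibitor of basic helix-loop-helix factors, went from 8.44 and 14 to 28.8 and 37.5 CPM (log2 fold change 1.57, SE 0.49, adjusted p = 0.0273). Its replicates spread widely, and without Scr AT7519 replicate 2, AT7519 replicate 1 or DMSO replicate 1 the adjusted p was 0.133, 0.0554 and 0.168. RPL36A (1.55, SE 0.17), RPS10 (1.54, SE 0.13) and RPS15A (1.39, SE 0.10) share sequence with many processed pseudogenes, and their levels may depend on how reads were assigned. RPS10 stood at 19.3 and 23.4 CPM under DMSO and 53.8 and 70.2 CPM with AT7519.

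**Figure D2:**
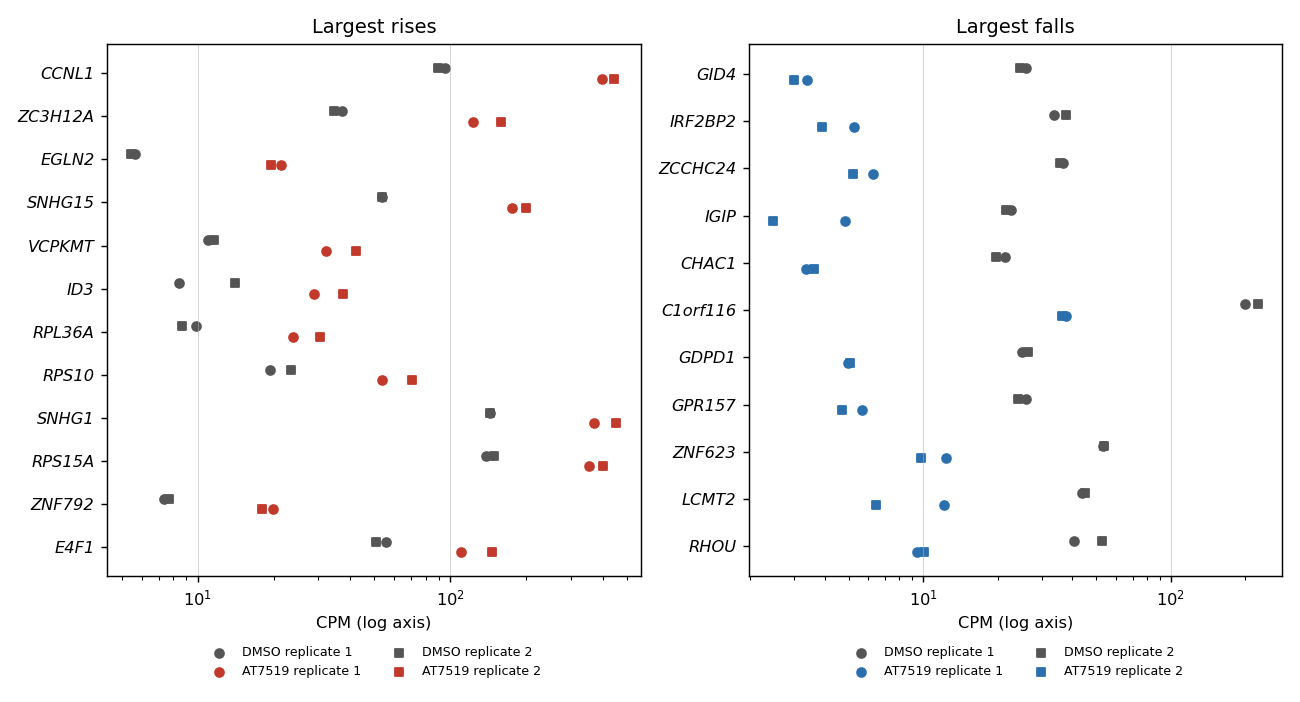
CPM (log axis) of the 12 largest rises (left) and 11 of the largest falls (right) in each Scr sample, circles for replicate 1 and squares for replicate 2, grey for DMSO and coloured for AT7519. The rule that named these genes required both AT7519 samples to lie beyond both DMSO samples. The narrowest gap on this axis is in E4F1.

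The falls named by the same rule, well counted and overlapping no other tested gene, were led by GID4. GID4, the substrate receptor of the CTLH ubiquitin ligase, stood at 26.1 and 24.5 CPM under DMSO and 3.39 and 2.99 CPM with AT7519 (log2 fold change -2.99, SE 0.13, adjusted p = 2.21e-12). IRF2BP2, which encodes a transcriptional corepressor, stood at 33.8 and 37.7 CPM under DMSO and 5.27 and 3.89 CPM with AT7519 (log2 fold change -2.97, SE 0.15, adjusted p = 3.21e-11). ZCCHC24, a zinc finger gene, went from 36.8 and 35.5 to 6.25 and 5.2 CPM (log2 fold change -2.66, SE 0.16, adjusted p = 1.64e-10). The rule also required both AT7519 values to lie beyond both DMSO values. Its level filter took the mean over all 4 samples, and GID4, IRF2BP2 and ZCCHC24, among others, reached it only with the DMSO samples included. C1orf116, whose product is known as a specifically androgen-regulated protein, had the most counts of the falls shown, at 199 and 225 CPM under DMSO and 37.6 and 36.3 CPM with AT7519 (log2 fold change -2.52, SE 0.10, adjusted p = 1.7e-12). CHAC1, the gene of a glutathione-degrading enzyme and a target of the ATF4 stress response, went from 21.4 and 19.6 to 3.36 and 3.61 CPM (-2.56, SE 0.24). IGIP, a single-exon gene, went from 22.6 and 21.6 to 4.82 and 2.48 CPM (-2.61, SE 0.27). RHOU, a small GTPase gene, fell from 40.7 and 52.4 to 9.39 and 10.1 CPM (-2.26, SE 0.14). The other falls of this set were GDPD1, a lysophospholipase D gene (-2.36), GPR157, a receptor gene (-2.28), ZNF623 (-2.27) and LCMT2, which encodes an enzyme of tRNA modification (-2.27). Their adjusted p-values were at most 1.95e-05.

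The upstream sequences of the 2 largest rises and of the 2 largest falls with an entry in the RefSeq promoter table are shown. These genes were taken from the set above, well counted and overlapping no other tested gene, and larger changes occurred outside it. Each line holds the 250 bases before the RefSeq start on GRCh38.p14, 5′ to 3′ on the gene's strand, with capitals for matches on either strand. The letters searched were TATAAA for the core promoter box, CCAAT for the box that NF-Y binds, GGGCGG for the box that SP factors bind, CACGTG for the E-box, TGACGTCA for the cAMP response element and CCGGAAG for sites of ETS factors, and matches may overlap. CCNL1 lies on the minus strand (chr3:157160148-157160397), ZC3H12A on the plus strand (chr1:37474330-37474579), IRF2BP2 on the minus strand (chr1:234610179-234610428) and ZCCHC24 on the minus strand (chr10:79445625-79445874).
CCNL1: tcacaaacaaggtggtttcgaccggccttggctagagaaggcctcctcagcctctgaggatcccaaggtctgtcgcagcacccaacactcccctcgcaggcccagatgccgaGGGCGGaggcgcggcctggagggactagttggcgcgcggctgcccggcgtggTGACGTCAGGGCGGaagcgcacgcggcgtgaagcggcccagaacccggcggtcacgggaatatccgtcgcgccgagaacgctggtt
ZC3H12A: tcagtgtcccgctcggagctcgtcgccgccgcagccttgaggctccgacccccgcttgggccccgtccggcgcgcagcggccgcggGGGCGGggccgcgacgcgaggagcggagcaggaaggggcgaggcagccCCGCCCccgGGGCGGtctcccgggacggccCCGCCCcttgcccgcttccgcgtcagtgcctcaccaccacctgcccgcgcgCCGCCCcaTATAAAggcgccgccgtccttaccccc
IRF2BP2: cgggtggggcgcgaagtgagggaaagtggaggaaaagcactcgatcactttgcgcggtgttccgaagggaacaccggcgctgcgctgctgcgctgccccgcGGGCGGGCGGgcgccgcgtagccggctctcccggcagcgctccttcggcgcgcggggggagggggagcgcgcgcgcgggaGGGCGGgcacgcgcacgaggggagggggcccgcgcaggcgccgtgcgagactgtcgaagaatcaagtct
ZCCHC24: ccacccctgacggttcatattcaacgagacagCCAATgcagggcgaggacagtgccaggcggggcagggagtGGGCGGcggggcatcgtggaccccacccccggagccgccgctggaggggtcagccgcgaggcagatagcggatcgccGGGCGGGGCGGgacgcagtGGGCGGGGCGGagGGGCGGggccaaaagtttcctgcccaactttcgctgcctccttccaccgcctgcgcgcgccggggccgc

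GGGCGG was in all 4, with 2 matches before CCNL1, 5 before ZC3H12A, 3 before IRF2BP2 and 6 before ZCCHC24. CCNL1 also held TGACGTCA 86 bases before the start. ZC3H12A held TATAAA 27 bases before the start and ZCCHC24 held CCAAT 218 bases before it. Over all 27305 RefSeq windows of 300 bases (250 before to 50 after the start), 44.6% held GGGCGG, 35.7% CCAAT, 12% TATAAA, 10.7% CCGGAAG, 7.43% CACGTG and 1.98% TGACGTCA. Among 11692 tested protein-coding genes with a window the shares were 67.5%, 36.7%, 6.53%, 17.7%, 9.61% and 3.07%. Genes lowered 2-fold or more (1342 windows) held them in 65.3%, 37.6%, 7.82%, 13.8%, 8.12% and 1.94%, and genes raised 2-fold or more (121 windows) in 57.0%, 40.5%, 7.44%, 22.3%, 12.4% and 3.31%. In the lowered genes the shares of GGGCGG and CCAAT were thus close to those of tested genes at large, and those of CCGGAAG and TGACGTCA were lower. None of these differences was tested.

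The genes of the kinases that AT7519 inhibits, and of their cyclins, moved in both directions. Of this list 7 of 16 rose, 5 fell and 4 were not called (median 0.16). By library size alone 4 rose and 6 fell (median -0.09). CDK9 stood at 56.4 and 54.8 CPM under DMSO and 92 and 92 CPM with AT7519 (log2 fold change 0.73, SE 0.08, adjusted p = 3.66e-07), so the transcript of the P-TEFb kinase took a larger share with the inhibitor. CDK1, the mitotic kinase, stood at 326 and 375 CPM under DMSO and 546 and 509 CPM with AT7519 (log2 fold change 0.59, SE 0.10, adjusted p = 4.6e-05). CDK4 (0.74, overlaps MARCHF9) and CDK5 (0.55, overlaps SLC4A2) rose as well, while CDK2 (log2 fold change 0.15, SE 0.09, adjusted p = 0.2, overlaps PMEL) did not pass. CDK6 fell from 7.37 and 9.39 to 4.69 and 5.65 CPM (log2 fold change -0.69, SE 0.20, adjusted p = 0.00852), a call that was lost without Scr AT7519 replicate 1 (adjusted p = 0.0927) or DMSO replicate 2 (0.101). CDK7, which activates other CDKs and is part of TFIIH, fell from 42.8 and 43.5 to 28.1 and 23.8 CPM (log2 fold change -0.73, SE 0.14, adjusted p = 0.000217).

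CCND1 and CCNE2, which encode cyclins of G1, fell. CCND1, cyclin D1, stood at 212 and 236 CPM under DMSO and 113 and 106 CPM with AT7519 (log2 fold change -1.04, SE 0.09, adjusted p = 9.51e-09, overlaps LTO1). CCNE2, cyclin E2, stood at 31.1 and 30.9 CPM under DMSO and 12.2 and 9.71 CPM with AT7519 (log2 fold change -1.5, SE 0.13, adjusted p = 2.51e-08, overlaps INTS8). Among members chosen after their values were seen, CCNE1 had a value of -0.53 and CDK5R1, the activator of CDK5, one of -2.40, whereas the mitotic cyclins CCNB1 (0.16) and CCNA2 (-0.11, overlaps EXOSC9) did not pass. MYC, whose transcript is short-lived, stood at 156 and 174 CPM under DMSO and 176 and 172 CPM with AT7519 and did not pass (log2 fold change 0.08, SE 0.08, adjusted p = 0.467). Its AT7519 values overlapped the DMSO values, and its value was -0.17 by library size alone. With OSMI2 the MYC response was -0.46, and its difference from Scr was called (-0.54, adjusted p = 0.0281 by edgeR's quasi-likelihood test). The difference of the siRNA arms from Scr was not (-0.29, adjusted p = 0.713). The alternatives were not examined for these 2 MYC differences.

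**Figure D3:**
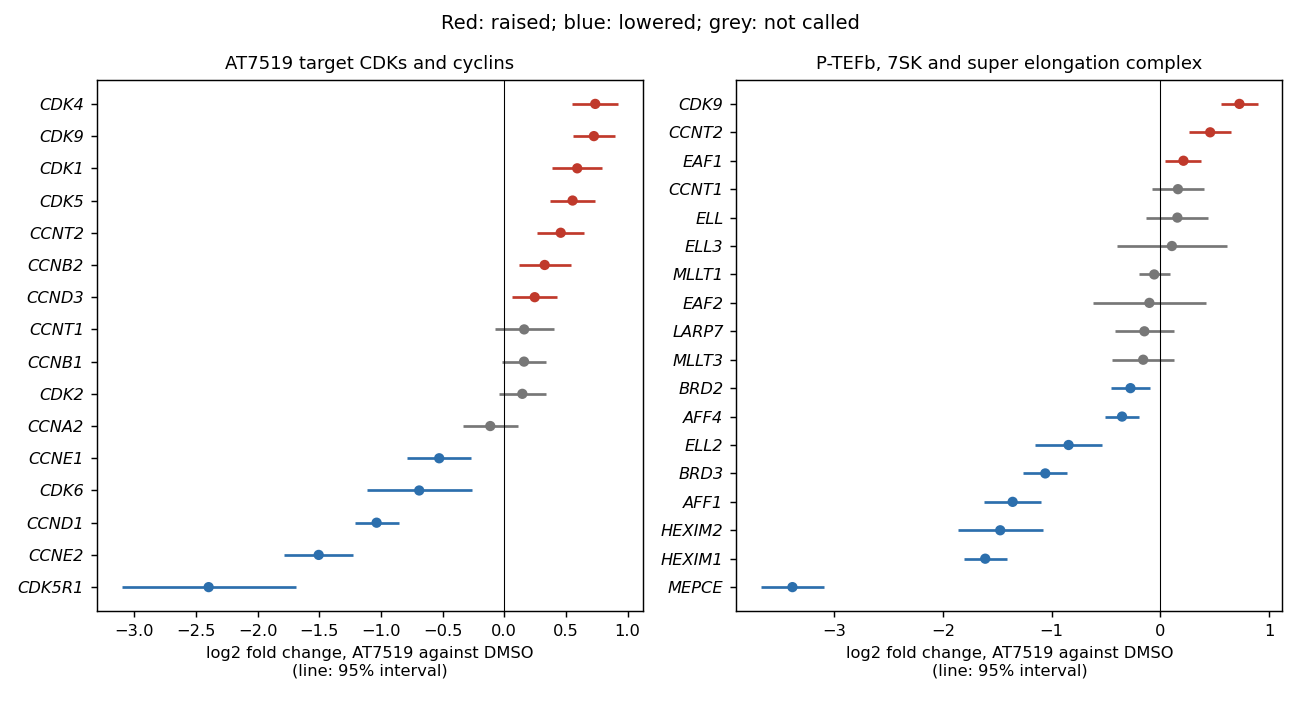
Log2 fold change of AT7519 against DMSO with its 95% interval (horizontal axis) for the tested members of the CDK and cyclin list (left) and for 18 of the 19 tested members of the P-TEFb, 7SK and super elongation list (right), red where raised, blue where lowered and grey where not called. CDK9 and CCNT2 lie above 0 and the 7SK proteins MEPCE, HEXIM1 and HEXIM2 lie below it.

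The genes of P-TEFb and its regulators moved in both directions. Of the P-TEFb, 7SK and super elongation complex genes 4 of 19 rose, 8 fell and 7 were not called (median -0.15). The median was 0.0014 with upper-quartile scaling. MEPCE, the capping enzyme of 7SK RNA, stood at 115 and 116 CPM under DMSO and 12.8 and 9.42 CPM with AT7519 (log2 fold change -3.38, SE 0.14, adjusted p = 2.13e-12, overlaps ZCWPW1). HEXIM1, which holds P-TEFb inactive on 7SK, stood at 72.8 and 75 CPM under DMSO and 23.9 and 24.5 CPM with AT7519 (log2 fold change -1.61, SE 0.10, adjusted p = 1.71e-10, overlaps HEXIM2-AS1). AFF1, a scaffold of the super elongation complex (-1.36, SE 0.13, overlaps TECRP1), and BRD3, a bromodomain protein that reads acetylated histones (-1.06, SE 0.10, overlaps BRD3OS), also fell. Chosen after their values were seen, HEXIM2 fell (-1.47, overlaps HEXIM2-AS1), CCNT2 (0.46, overlaps CCNT2-AS1) rose, and LARP7 (-0.15, overlaps ZGRF1) and CCNT1 (0.16) did not pass. RN7SK itself was too low to be tested.

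The rest of the transcription machinery was split by subunit. Of RNA polymerase II subunit genes 8 of 12 rose, 2 fell and 2 were not called (median 0.38). The small subunits POLR2L (124 and 125 against 209.9 and 216 CPM, 0.78, SE 0.07, overlaps CD151) and POLR2E (183 and 182 against 281 and 297 CPM, 0.66, SE 0.07, overlaps ARHGAP45) rose. The largest subunit POLR2A, whose tail CDK9 and CDK7 phosphorylate, fell from 155 and 144 to 91.2 and 106 CPM (log2 fold change -0.61, SE 0.09, adjusted p = 2.41e-05), and POLR2D from 86 and 103 to 58.8 and 50.8 CPM (-0.78, SE 0.10). Of pausing and PAF1 elongation factors 9 of 17 rose, 3 fell and 5 were not called (median 0.22), with a median of -0.02 by library size alone. NELFCD, a subunit of the negative elongation factor, rose (153 and 147 against 217 and 254 CPM, 0.65, SE 0.10), as did SSRP1 of the histone chaperone FACT (0.48, SE 0.08, overlaps a gene without a symbol), while LEO1 of PAF1 fell (116 and 126 against 68 and 63.9 CPM, -0.87, SE 0.08, overlaps MAPK6).

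Among general transcription factors 10 of 32 rose, 15 fell and 7 were not called (median -0.13), with a median of 0.02 by upper-quartile scaling. GTF2E1 of TFIIE (47.7 and 57 against 16.1 and 14.1 CPM, -1.80, SE 0.12, overlaps RABL3), TAF8 of TFIID (23.5 and 24.6 against 7.16 and 9.3 CPM, -1.54, SE 0.16) and GTF2A1 of TFIIA (243 and 265 against 132 and 118 CPM, -1.02, SE 0.08, overlaps GTF2A1-AS1) fell. Of Mediator genes 7 of 32 rose, 13 fell and 12 were not called (median -0.17), and with upper-quartile scaling 7 rose and 8 fell (median -0.01). MED13, which joins the CDK8 kinase module to Mediator, fell most of its 4 named members (126 and 116 against 37.5 and 35.1 CPM, log2 fold change -1.73, SE 0.09, adjusted p = 1.85e-11, overlaps a small RNA gene), followed by MED1 (-0.63, overlaps a gene without a symbol), MED23 (-0.53, overlaps ARG1) and MED29 (-0.50). In Integrator, the complex that ends snRNA and paused transcripts, 4 of 15 rose, 7 fell and 4 were not called (median -0.27), with INTS5 at 32.7 and 31.7 CPM under DMSO and 8.38 and 7.19 CPM with AT7519 (log2 fold change -2.05, SE 0.11, adjusted p = 3.7e-11). INTS2 fell as well (72.9 and 65.4 against 28 and 27.5 CPM, -1.32, SE 0.10).

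The kinases around splicing and late elongation moved apart. Of CDK12, CDK13, CDK11, cyclin L, CLK and DYRK genes 8 of 16 rose, 4 fell and 4 were not called (median 0.41), whereas by library size alone 4 rose and 6 fell (median 0.16). CCNL1 was the highest of them. CLK3, a kinase of SR splicing proteins, rose (95.6 and 83.2 against 183 and 227 CPM, log2 fold change 1.2, SE 0.11, adjusted p = 3.89e-08, overlaps EDC3), and CDK13, a polymerase II kinase, fell (53.8 and 52.6 against 21.5 and 18 CPM, log2 fold change -1.43, SE 0.10, adjusted p = 8.35e-10, overlaps CDK13-DT). DYRK2 fell from 18.2 and 20.6 to 6.97 and 4.11 CPM (-1.82, SE 0.24). Members chosen after their values were seen were CLK1 (1.2, overlaps a small RNA gene) and CCNL2 (0.82), which rose, and CDK12 (-0.34), which fell.

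Genes of deadenylation and decapping fell more often than they rose, and those of the exon junction complex and mRNA export rose more often than they fell. Of CCR4-NOT, deadenylation and decapping genes 2 of 30 rose, 21 fell and 7 were not called (median -0.39), against background shares of 21.8% higher and 24.6% lower. Under upper-quartile scaling 4 rose and 13 fell (median -0.24) in this list. DCP1A, a cofactor of decapping, stood at 69.7 and 66.2 CPM under DMSO and 23 and 20.7 CPM with AT7519 (log2 fold change -1.64, SE 0.09, adjusted p = 1.21e-10, overlaps CACNA1D). The deadenylase gene CNOT6L stood at 46.3 and 46.3 CPM under DMSO and 21 and 17.7 CPM with AT7519 (log2 fold change -1.26, SE 0.12, adjusted p = 3.93e-08). Of exosome and nonsense-mediated decay genes 6 of 26 rose, 11 fell and 9 were not called (median -0.09), and with upper-quartile scaling 9 rose and 10 fell (median 0.06). UPF3B (27.5 and 27.7 against 10.4 and 10.2 CPM, -1.43, SE 0.11), UPF2 (-0.97, SE 0.09, overlaps a small RNA gene) and SMG9 (-1.5, SE 0.15) of nonsense-mediated decay and ZFC3H1 of nuclear exosome targeting (-1.67, SE 0.11, overlaps THAP2) fell. Of exon junction and export genes 14 of 25 rose, 2 fell and 9 were not called (median 0.31), though by library size alone 6 rose and 7 fell (median 0.07). The export helicase DDX39A rose from 88.7 and 97.7 to 196 and 230.2 CPM (log2 fold change 1.19, SE 0.10, adjusted p = 7.94e-09), as did ALYREF (0.78, overlaps ANAPC11) and EIF4A3 (0.46), and CASC3 fell (-0.61). Of nuclear pore genes 6 of 30 rose, 15 fell and 9 were not called (median -0.20), or 9 rose and 12 fell (median -0.05) with upper-quartile scaling. They included NUP153 (111 and 112 against 46.7 and 51 CPM, -1.19, SE 0.11, overlaps NUP153-AS1) and NUP160 (-0.82, SE 0.09, overlaps YPEL5P2) among the falls and SEC13 (0.47, SE 0.07, overlaps GHRLOS) among the rises.

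Sequence-specific transcription factors mostly fell, in lists not matched for count level or length. Of KLF, SP and EGR genes 1 of 20 rose, 13 fell and 6 were not called (median -1.06), with 10 falls of 2-fold or more, and the median is unaltered when a member with 0 counts in 1 group is set at its bound. KLF3, a repressor of the Krüppel-like family, stood at 45.7 and 44.5 CPM under DMSO and 9.81 and 8.81 CPM with AT7519 (log2 fold change -2.28, SE 0.14, adjusted p = 1.88e-10, overlaps KLF3-AS1). KLF4 (7.4 and 6.75 against 2.37 and 2.43 CPM, -1.56, SE 0.19), KLF15 (10.4 and 12.3 against 4.23 and 5.06 CPM, -1.29, SE 0.16) and SP4 (25.5 and 28.1 against 13 and 12.6 CPM, -1.07, SE 0.12) fell too. Of AP-1, ATF, MAF and CEBP genes 4 of 29 rose, 15 fell and 10 were not called (median -0.80). CREB1, the factor that binds cAMP response elements, stood at 76.4 and 85.1 CPM under DMSO and 27.9 and 24.8 CPM with AT7519 (log2 fold change -1.62, SE 0.09, adjusted p = 5.46e-11, overlaps METTL21A). ATF3, a stress-induced factor, stood at 43.2 and 40.5 CPM under DMSO and 14.9 and 15.3 CPM with AT7519 (log2 fold change -1.47, SE 0.11, adjusted p = 2.7e-09). Members chosen after their values were seen that did not follow were JUND (0.83), MAFK (0.54, overlaps TMEM184A) and MAFG (0.41, overlaps SIRT7), which rose, and JUN (-0.03), which did not pass.

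Nuclear receptors, the ligand-controlled transcription factors, had 1 rise among 36 tested genes and 25 falls (median -0.75). VDR, the vitamin D receptor, stood at 40.7 and 42.9 CPM under DMSO and 18.6 and 19.1 CPM with AT7519 (log2 fold change -1.15, SE 0.10, adjusted p = 1.3e-08, overlaps a gene without a symbol). NR2F2 (47.1 and 52.9 against 18.8 and 16 CPM, -1.52, SE 0.13, overlaps NR2F2-AS1), the thyroid hormone receptor gene THRB (90.5 and 108 against 50.2 and 42.4 CPM, -1.10, SE 0.12, overlaps THRB-AS1) and PPARA (14.1 and 14.4 against 6.34 and 5.42 CPM, -1.28, SE 0.14, overlaps a gene without a symbol) fell. Of SOX, FOX, GATA and HOX genes 2 of 33 rose, 19 fell and 12 were not called (median -0.58), the same with members at 0 in 1 group set at their bound, and FOXK1 (64.9 and 66.6 against 37.6 and 34.4 CPM, -0.87, SE 0.08) and FOXJ2 (42.6 and 40.9 against 17.1 and 13.6 CPM, -1.45, SE 0.14) were among the falls. In the circadian clock list 2 of 22 rose, 16 fell and 4 were not called (median -0.71). TEF, a PAR-domain factor driven by the clock, fell from 13.6 and 10.7 to 2.58 and 2.08 CPM (log2 fold change -2.39, SE 0.19, adjusted p = 6.95e-09), as did BHLHE40 (-1.58, SE 0.19, overlaps BHLHE40-AS1), PER2 (-1.31, SE 0.17, overlaps a gene without a symbol) and CLOCK (-0.77, SE 0.10, overlaps TMEM165). Of E2F, RB and G1 inhibitor genes 3 of 20 rose, 8 fell and 9 were not called (median -0.07). The median was 0.08 by upper-quartile scaling, with falls in E2F7 (24 and 21.2 against 6.81 and 7.25 CPM, -1.68, SE 0.19), E2F8 (-1.41, SE 0.16, overlaps CSRP3-AS1) and RBL1 (-1.12, SE 0.10, overlaps a gene without a symbol).

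Genes that damp signalling pathways mostly fell, again in lists not matched for count level or length. Of MAPK phosphatases and Sproutys, which act against ERK and related kinases, 3 of 25 rose, 19 fell and 3 were not called (median -0.64). DUSP16, a phosphatase of JNK and p38, stood at 110.3 and 111 CPM under DMSO and 30.4 and 25.3 CPM with AT7519 (log2 fold change -1.99, SE 0.10, adjusted p = 1.85e-11, overlaps a gene without a symbol). SPRED1, an inhibitor of RAS signalling, stood at 13.1 and 11.1 CPM under DMSO and 3.38 and 2.86 CPM with AT7519 (log2 fold change -1.96, SE 0.19, adjusted p = 7.15e-08). SPRY3 (4.59 and 3.57 against 0.89 and 0.707 CPM, -2.36, SE 0.29) and DUSP3 (109 and 113 against 77 and 64.8 CPM, -0.64, SE 0.08) fell as well. Of feedback genes of the cytokine, NF-kB, Wnt and TGF-beta pathways 2 of 31 rose, 20 fell and 9 were not called (median -0.92). SOCS7 stood at 82.7 and 78.8 CPM under DMSO and 30.6 and 32 CPM with AT7519 (log2 fold change -1.37, SE 0.09, adjusted p = 4.12e-10). The inhibitory SMAD gene SMAD6 stood at 13.3 and 16.9 CPM under DMSO and 3.58 and 4.7 CPM with AT7519 (-1.86, SE 0.18) and the Notch feedback gene NRARP at 11.3 and 11.8 CPM under DMSO and 2.95 and 1.5 CPM with AT7519 (-2.39, SE 0.24). The rises in this list, chosen after their values were seen, were ID3 and the NF-kB inhibitor NFKBIA (0.45).

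Ubiquitin ligase adaptors and deubiquitinases shifted down, while the proteasome shifted up. These lists were not matched for count level or length. Of all tested genes with a mean log2 CPM of 6 to 8, 47.8% rose and 19.5% fell, and at 4 to 6 24.3% rose and 38.1% fell. Of F-box genes, the substrate receptors of SCF ligases, 8 of 53 rose, 29 fell and 16 were not called (median -0.34). FBXO28 stood at 202 and 213 CPM under DMSO and 65 and 54.9 CPM with AT7519 (log2 fold change -1.79, SE 0.09, adjusted p = 1.64e-11). BTRC, which targets IκB and beta-catenin, stood at 24.9 and 24.5 CPM under DMSO and 10.3 and 9.79 CPM with AT7519 (-1.30, SE 0.12). Of BTB-Kelch and cullin genes 4 of 40 rose, 23 fell and 13 were not called (median -0.41), with KLHL24 at 41.3 and 38.1 CPM under DMSO and 9.87 and 9.71 CPM with AT7519 (log2 fold change -2.02, SE 0.12, adjusted p = 2.57e-10) and KLHL26 at 13.3 and 12.2 CPM under DMSO and 2.28 and 1.78 CPM with AT7519 (-2.66, SE 0.20). Of ubiquitin-specific proteases 4 of 43 rose, 26 fell and 13 were not called (median -0.42), with USP30, the mitochondrial member, at 19.7 and 17.4 CPM under DMSO and 6.71 and 6.32 CPM with AT7519 (log2 fold change -1.51, SE 0.12, adjusted p = 3.23e-09). Of proteasome subunits 28 of 32 rose, 0 fell and 4 were not called (median 0.44), where the 0 falls are by edgeR (0 at an unadjusted p under 0.05 and 0 by DESeq2). With library-size scaling 17 rose and 1 fell (median 0.20). PSMB4, a subunit of the catalytic core particle, stood at 347 and 321 CPM under DMSO and 561 and 571 CPM with AT7519 (log2 fold change 0.76, SE 0.07, adjusted p = 4.24e-08). PSMC5, an ATPase of the regulatory particle, stood at 117 and 112 CPM under DMSO and 184 and 192 CPM with AT7519 (0.72, SE 0.07, overlaps FTSJ3).

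Chromatin regulators that write or erase histone methylation mostly fell. Of histone methyltransferases and demethylases 2 of 49 rose, 32 fell and 15 were not called (median -0.45), against background shares of 21.8% higher and 24.6% lower. With upper-quartile scaling 6 rose and 25 fell (median -0.29). The list was not matched for count level or length. KDM2A, a demethylase of H3K36, stood at 152 and 148 CPM under DMSO and 69.3 and 66.9 CPM with AT7519 (log2 fold change -1.14, SE 0.07, adjusted p = 4.9e-10, overlaps a gene without a symbol). KDM5B, a demethylase of H3K4, stood at 142 and 125 CPM under DMSO and 53.5 and 51.1 CPM with AT7519 (log2 fold change -1.35, SE 0.09, adjusted p = 7.64e-10, overlaps COX7CP2). KMT5B (60.7 and 58.7 against 26.3 and 26.4 CPM, -1.18, SE 0.08) and the Polycomb methyltransferase EZH1 (33.5 and 31.3 against 12.4 and 11.5 CPM, -1.44, SE 0.11) overlap no other tested gene and fell too. Of Polycomb genes 3 of 30 rose, 18 fell and 9 were not called (median -0.33), with CBX2 (60.2 and 65.2 against 27.1 and 25.4 CPM, -1.26, SE 0.10) and EED (42.1 and 45.9 against 19.2 and 20.9 CPM, -1.13, SE 0.10) among the falls. Of SWI/SNF and other remodellers 7 of 43 rose, 18 fell and 18 were not called (median -0.19), though with upper-quartile scaling 11 rose and 12 fell (median -0.04). Among the falls were ARID2 (-1.17, SE 0.09, overlaps KNOP1P2) and BICRAL (-1.21, SE 0.11). Acetyltransferases and deacetylases were divided, as 10 of 31 rose, 13 fell and 8 were not called (median -0.04) and the median was 0.11 by upper-quartile scaling. In that list the deacetylase SIRT1 fell (41 and 39.9 against 14.9 and 11.2 CPM, log2 fold change -1.63, SE 0.12, adjusted p = 2.98e-09), and HDAC1 rose (212 and 214 against 313 and 321 CPM, log2 fold change 0.57, SE 0.07, adjusted p = 6.43e-07).

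**Figure D4:**
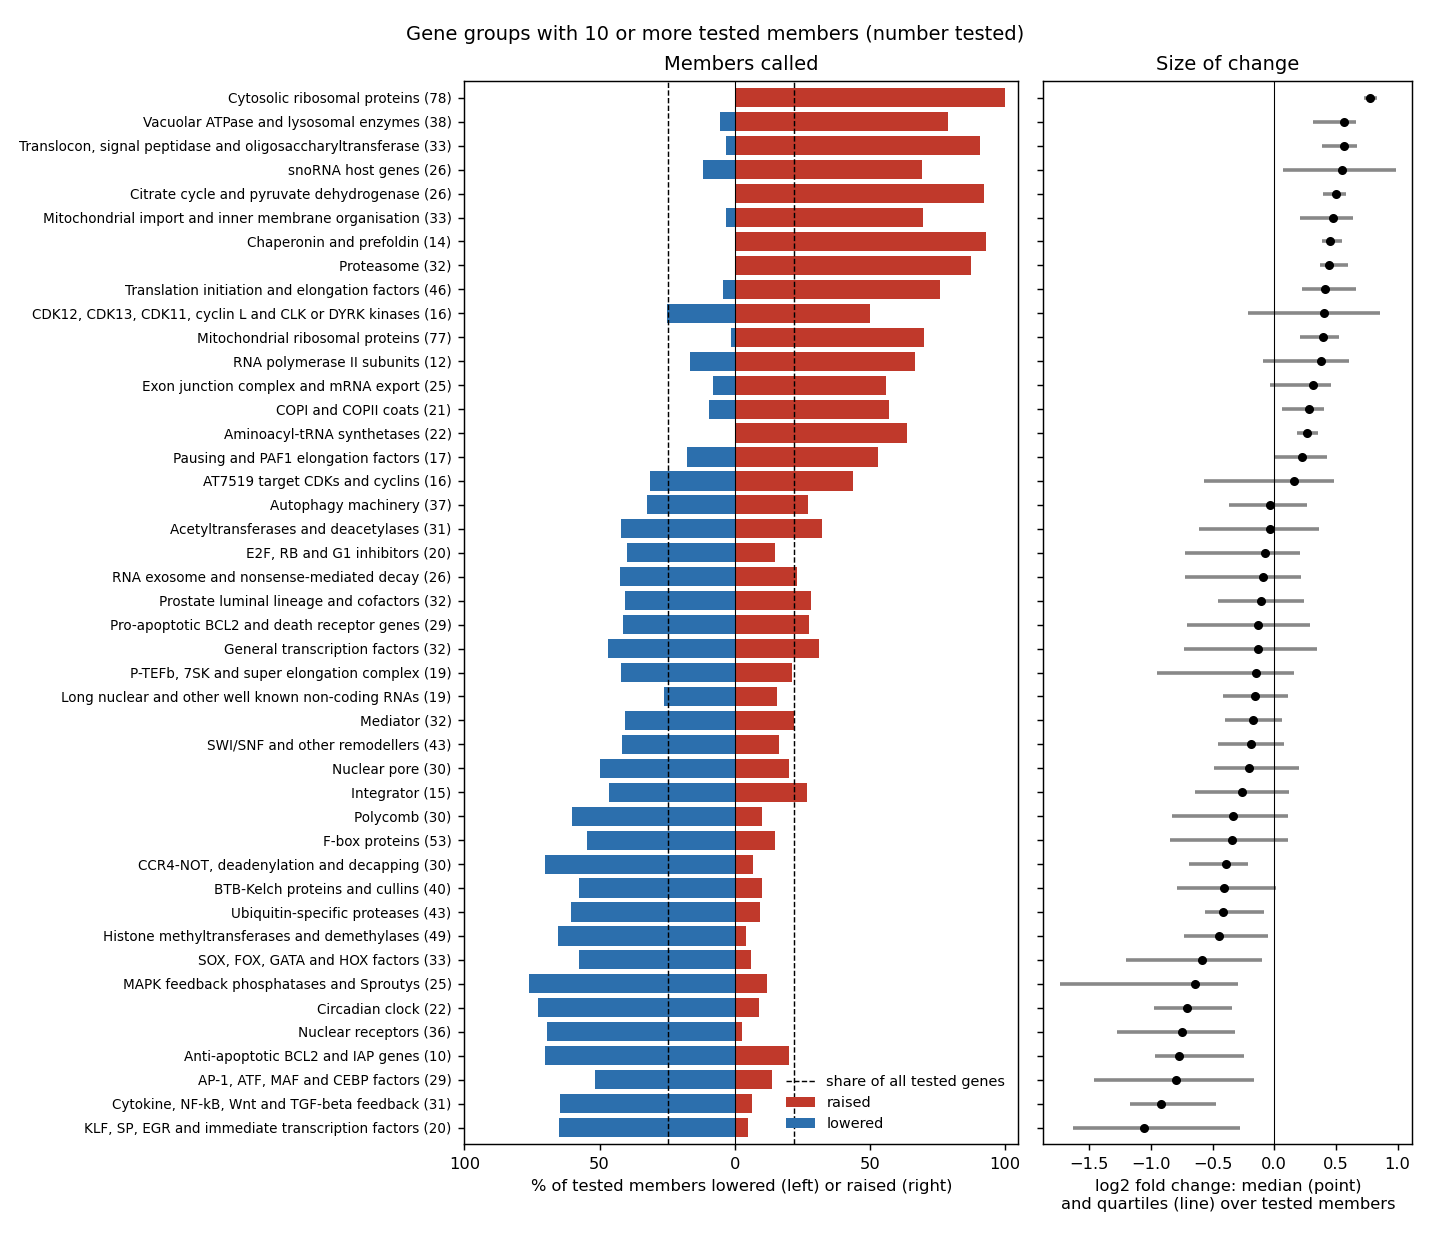
Left, the percentage of tested members lowered (blue, to the left) and raised (red, to the right) in each gene group with 10 or more tested members, whose number is in parentheses, with dashed lines at the shares over all tested genes (24.6% and 21.8%). Right, the median log2 fold change of the group's members (point) and their quartiles (line). Groups run from the cytosolic ribosomal proteins at the top (median 0.77) to the KLF, SP and EGR factors at the foot (median -1.06).

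Every cytosolic ribosomal protein gene rose. All 78 tested genes passed, with log2 fold changes from 0.63 to 1.55 and a median of 0.77, and all 78 rose under RLE, upper-quartile and library-size scaling. Their 0 falls are by edgeR (0 at an unadjusted p under 0.05 and 0 by DESeq2). The genes took 8.48% and 8.27% of all counts under DMSO and 12.2% and 11.9% with AT7519, so their share was higher in both AT7519 libraries by over 3 percentage points. RPS16 stood at 658 and 622 CPM under DMSO and 1125 and 1239.5 CPM with AT7519 (log2 fold change 0.88, SE 0.07, adjusted p = 6.18e-09) and RPS15 at 596 and 563 CPM under DMSO and 1063 and 1112 CPM with AT7519 (0.91, SE 0.07). RPS19 stood at 471 and 442 CPM under DMSO and 854 and 858 CPM with AT7519 (0.91, SE 0.07). The middle 50% of the members lay between 0.73 and 0.83. Of all tested genes with a mean log2 CPM of 8 or more, 561 of 714 rose (median 0.48). Of processed pseudogenes named for ribosomal proteins, whose counts may come from the parent genes, 158 of 325 rose and 8 fell (median 0.80), and of other processed pseudogenes 383 of 1582 rose and 107 fell (median 0.40).

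Most other genes of protein synthesis and folding on these lists rose too, without matching for count level or length. Of all tested genes with a mean log2 CPM of 6 to 8, 47.8% rose (median 0.20). At 8 or more 78.6% rose (median 0.48). Of translation initiation and elongation factors 35 of 46 rose, 2 fell and 9 were not called (median 0.41). When scaled to library size only, 21 rose and 5 fell (median 0.16). EIF4A2, a helicase of initiation, stood at 348 and 361 CPM under DMSO and 793 and 869 CPM with AT7519 (log2 fold change 1.23, SE 0.07, adjusted p = 1.96e-10, overlaps RFC4). PABPC4, a poly(A)-binding protein gene, stood at 151 and 156 CPM under DMSO and 259 and 266 CPM with AT7519 (0.78, SE 0.07, overlaps PABPC4-AS1) and EIF3C at 21.7 and 21.9 CPM under DMSO and 41.1 and 48.9 CPM with AT7519 (1.05, SE 0.11), the latter having a near-identical copy, so that its level is uncertain. Of aminoacyl-tRNA synthetases 14 of 22 rose, 0 fell and 8 were not called (median 0.26). There were 0 falls at an unadjusted p under 0.05 in edgeR and 0 by DESeq2. By library size alone only 3 rose and 1 fell (median 0.02). QARS1 stood at 179 and 170.2 CPM under DMSO and 243 and 228 CPM with AT7519 (log2 fold change 0.43, SE 0.07, adjusted p = 5.46e-05). Of chaperonin and prefoldin subunits 13 of 14 rose, 0 fell and 1 was not called (median 0.45). There were 0 falls at an unadjusted p under 0.05 in edgeR and 0 by DESeq2. With library-size scaling 9 rose and 0 fell (median 0.20). CCT8 stood at 463 and 518 CPM under DMSO and 718 and 732 CPM with AT7519 (0.56, SE 0.08, overlaps a gene without a symbol). CCT5 stood at 340.2 and 376 CPM under DMSO and 489 and 498 CPM with AT7519 (0.46, SE 0.07, overlaps a gene without a symbol).

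Mitochondrial genes encoded in the nucleus mostly rose, again without matching for count level or length. Of mitochondrial ribosomal proteins 54 of 77 rose, 1 fell and 22 were not called (median 0.39). When scaled to library size only, 29 rose and 8 fell (median 0.15). MRPS15 stood at 96.9 and 102 CPM under DMSO and 159 and 169 CPM with AT7519 (log2 fold change 0.73, SE 0.07, adjusted p = 1.26e-07). MRPL55 stood at 53.4 and 54.8 CPM under DMSO and 90.2 and 97.1 CPM with AT7519 (0.79, SE 0.08). Of import and inner membrane genes 23 of 33 rose, 1 fell and 9 were not called (median 0.48), with TOMM22, an import receptor, at 102 and 110.4 CPM under DMSO and 167 and 164 CPM with AT7519 (log2 fold change 0.64, SE 0.07, adjusted p = 4.34e-07). Of citrate cycle and pyruvate dehydrogenase genes 24 of 26 rose, 0 fell and 2 were not called (median 0.50). There were 0 falls at an unadjusted p under 0.05 in edgeR and 0 by DESeq2. By library size alone 17 rose and 0 fell (median 0.26). IDH3B, a subunit of isocitrate dehydrogenase, stood at 80.5 and 80.3 CPM under DMSO and 141 and 147 CPM with AT7519 (log2 fold change 0.84, SE 0.08, adjusted p = 4.62e-08). MDH2, malate dehydrogenase, stood at 307 and 308 CPM under DMSO and 477 and 484 CPM with AT7519 (0.64, SE 0.07).

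The secretory and lysosomal machinery showed the same direction, with the same limit. Of translocon, signal peptidase and oligosaccharyltransferase genes 30 of 33 rose, 1 fell and 2 were not called (median 0.56). With library-size scaling 21 rose and 3 fell (median 0.32). SEC61B of the translocon stood at 128 and 133 CPM under DMSO and 234 and 226 CPM with AT7519 (log2 fold change 0.82, SE 0.08, adjusted p = 1.57e-07). SRP14 of the signal recognition particle stood at 311 and 319 CPM under DMSO and 535 and 513 CPM with AT7519 (0.73, SE 0.08). Of vacuolar ATPase and lysosomal genes 30 of 38 rose, 2 fell and 6 were not called (median 0.57). ATP6V0B stood at 217 and 203 CPM under DMSO and 363 and 358 CPM with AT7519 (log2 fold change 0.78, SE 0.07, adjusted p = 4.32e-08). ATP6AP1 stood at 148 and 129 CPM under DMSO and 239.9 and 235 CPM with AT7519 (0.78, SE 0.08). ATP6AP2 stood at 137 and 131 CPM under DMSO and 233 and 213 CPM with AT7519 (0.74, SE 0.08). Of COPI and COPII coat genes 12 of 21 rose, 2 fell and 7 were not called (median 0.28), where ARF1 rose (557 and 564 against 881 and 831 CPM, 0.61, SE 0.07) and the cargo adaptors SEC24A (-0.83, SE 0.11, overlaps SAR1B) and SEC24B (-0.87, SE 0.10, overlaps SEC24B-AS1) fell. When scaled to library size only, 6 rose and 5 fell (median 0.04) in that list. Autophagy genes were divided, as 10 of 37 rose, 12 fell and 15 were not called (median -0.04) and the median turned positive with RLE (0.0094) and upper-quartile scaling (0.12). PIK3R4, a subunit of the VPS34 lipid kinase (70.4 and 66.7 against 37.4 and 33.9 CPM, -0.94, SE 0.10), RB1CC1 of the ULK complex (-0.77, SE 0.09, overlaps a gene without a symbol) and TFEB, the master factor of lysosomal genes (4.93 and 5.03 against 1.39 and 2.12 CPM, -1.49, SE 0.22), fell.

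Regulators of opposing roles in apoptosis were among the falls. Among 10 tested anti-apoptotic genes 2 rose, 7 fell and 1 was not called (median -0.77). XIAP, an inhibitor of caspases, stood at 162 and 183 CPM under DMSO and 92.7 and 74.9 CPM with AT7519 (log2 fold change -1.04, SE 0.11, adjusted p = 1.94e-07, overlaps PARD6BP1). BIRC2 stood at 65.7 and 63.1 CPM under DMSO and 37.7 and 30.6 CPM with AT7519 (log2 fold change -0.92, SE 0.10, adjusted p = 5.69e-07). BIRC6 (173 and 165 against 93.9 and 102 CPM, -0.79, SE 0.09, overlaps BIRC6-AS1) and CFLAR (52.6 and 50.6 against 30.1 and 31.3 CPM, -0.75, SE 0.09, overlaps CFLAR-AS1), an inhibitor of caspase-8 activation, also fell. MCL1, a survival gene often followed with CDK9 inhibitors, stood at 290.3 and 294 CPM under DMSO and 424 and 352 CPM with AT7519 (log2 fold change 0.41, SE 0.10, adjusted p = 0.00181, overlaps ADAMTSL4-AS1), and the call was lost by library size alone (0.16, adjusted p = 0.111). Of pro-apoptotic genes 8 of 29 rose, 12 fell and 9 were not called (median -0.13). The median was 0.03 by upper-quartile scaling. The falls were largest in BH3-only genes, with BCL2L11 (BIM) at 43.2 and 47.5 CPM under DMSO and 11.5 and 10.1 CPM with AT7519 (log2 fold change -2.07, SE 0.14, adjusted p = 1.05e-09, overlaps MIR4435-2HG). BMF stood at 16.9 and 15.2 CPM under DMSO and 4.97 and 4.1 CPM with AT7519 (log2 fold change -1.83, SE 0.15, adjusted p = 1.21e-08) and BIK at 5.53 and 6.14 CPM under DMSO and 1.82 and 1.58 CPM with AT7519 (log2 fold change -1.78, SE 0.18, adjusted p = 9.13e-08). PMAIP1 (NOXA) fell from 31.7 and 35 to 14.7 and 12.9 CPM (-1.27, SE 0.15). Other members, chosen after their values were seen, were BAX (0.35) and BAD (0.44, overlaps GPR137), which rose.

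Prostate luminal genes were divided. Of the luminal lineage and cofactor list 9 of 32 rose, 13 fell and 10 were not called (median -0.11). The median was 0.04 by upper-quartile scaling. The coactivators NCOA2 (115 and 109 against 64.6 and 60.1 CPM, log2 fold change -0.85, SE 0.08, adjusted p = 2.37e-08) and NCOA1 (89.9 and 95.8 against 56.4 and 55 CPM, log2 fold change -0.74, SE 0.09, adjusted p = 7.88e-07) fell, as did the epithelial factor GRHL2 (103 and 118 against 43.9 and 51 CPM, -1.22, SE 0.11, overlaps a gene without a symbol) and TRPS1 (52.4 and 46.4 against 26.6 and 19.4 CPM, -1.11, SE 0.14). Chosen after its values were seen, FOLH1, the gene of prostate-specific membrane antigen, had 0.40 and KLK3 0.08 (adjusted p = 0.595).

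Non-coding genes separated by class. Of 1736 long intergenic non-coding RNAs 71 rose (4.09%) and 468 fell (27.0%), with a median of -0.54. Over all tested genes 21.8% rose and 24.6% fell. Of those with a mean log2 CPM under 0, 12.3% rose and 13.2% fell, and at 0 to 2 15.9% rose and 29.7% fell. The class was not matched for count level. Small nucleolar RNAs, which guide modification of ribosomal RNA, went the other way, as 93 of 183 rose and 1 fell (median 1.65). Most small nucleolar RNAs lie within introns of host genes, so reads of a host may be counted for them. Of the genes that host them 18 of 26 rose, 3 fell and 5 were not called (median 0.55). SNHG32 stood at 78.1 and 78.2 CPM under DMSO and 160.2 and 149 CPM with AT7519 (log2 fold change 0.98, SE 0.07, adjusted p = 2.04e-09). GAS5 stood at 298 and 269 CPM under DMSO and 617 and 764 CPM with AT7519 (1.28, SE 0.10, overlaps GAS5-AS1). Genes of the sense intronic class rose in 116 of 413 cases and fell in 47 (median 0.40). Of the well known long non-coding RNAs 3 of 19 rose, 5 fell and 11 were not called (median -0.16), against 4 rose and 4 fell (median 0.01) with upper-quartile scaling. Here OIP5-AS1 was lower (189.7 and 219.7 against 137 and 119 CPM, -0.68, SE 0.10, overlaps OIP5) and PVT1 (24 and 25.9 against 39.1 and 46.7 CPM, 0.78, SE 0.13, overlaps LINC02912) and DANCR (0.52, SE 0.09, overlaps SNORA26) higher.

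Gene families taken by the start of their symbols, where 40 or more members were tested, were counted without a chosen list. Of 557 ZNF genes 62 rose and 292 fell, and among the 317 protein-coding ones with a mean log2 CPM of 3 or more 48 rose and 171 fell (median -0.38), beside 3114 and 2846 of 9200 other protein-coding genes at that level (median 0.04). Of 58 TRIM genes, mostly ubiquitin ligases, 2 rose and 29 fell. Of 43 CEP genes, named for centrosomal proteins, 0 rose and 24 fell by edgeR (2 rose at an unadjusted p under 0.05, and 1 by DESeq2). Of 41 KIF genes, the kinesin motors, 6 rose and 22 fell, and of 92 RNF genes, the ring finger proteins, 15 rose and 45 fell. Rises prevailed among EIF (50 of 90, with 7 falls), MRPL (39 of 59, with 4 falls) and ATP genes (40 of 98, with 11 falls). SLC transporters (56 rises and 80 falls of 322) and TMEM genes (59 and 55 of 219) stood near the background shares of 21.8% and 24.6%.

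Gene structure went with the direction of change. Among 9517 protein-coding genes with a mean log2 CPM of 3 or more the median log2 fold change was 0.03. It was 0.40 for genes spanning under 5 kb, of which 355 of 614 rose and 101 fell. It was 0.04 at 20 to 50 kb and -0.23 at 100 to 200 kb, where 203 of 1201 rose and 571 fell, and it stood at -0.14 above 200 kb. The order was alike at each count level. With a mean log2 CPM of 7 or more the median was 0.63 under 10 kb and 0.17 above 50 kb, at 5 to 7 it was 0.38 and -0.16, and at 3 to 5 it was 0.0081 and -0.36. By summed exon length the median went from 0.61 under 1 kb (50 of 56 rose and 1 fell) to -0.18 above 8 kb (445 of 2310 rose and 1025 fell). Exon number gave another shape, with -0.22 for the 100 genes of a single exon, 0.11 for 6 to 10 exons and -0.08 for 21 or more. Overlap with another tested gene made little difference to these shares, as 33.6% of overlapping genes rose and 31.2% fell, against 32.8% and 32.3% of the others. Span, exon length and count level are related to one another, and which of them goes with the change was not tested.

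**Figure D5:**
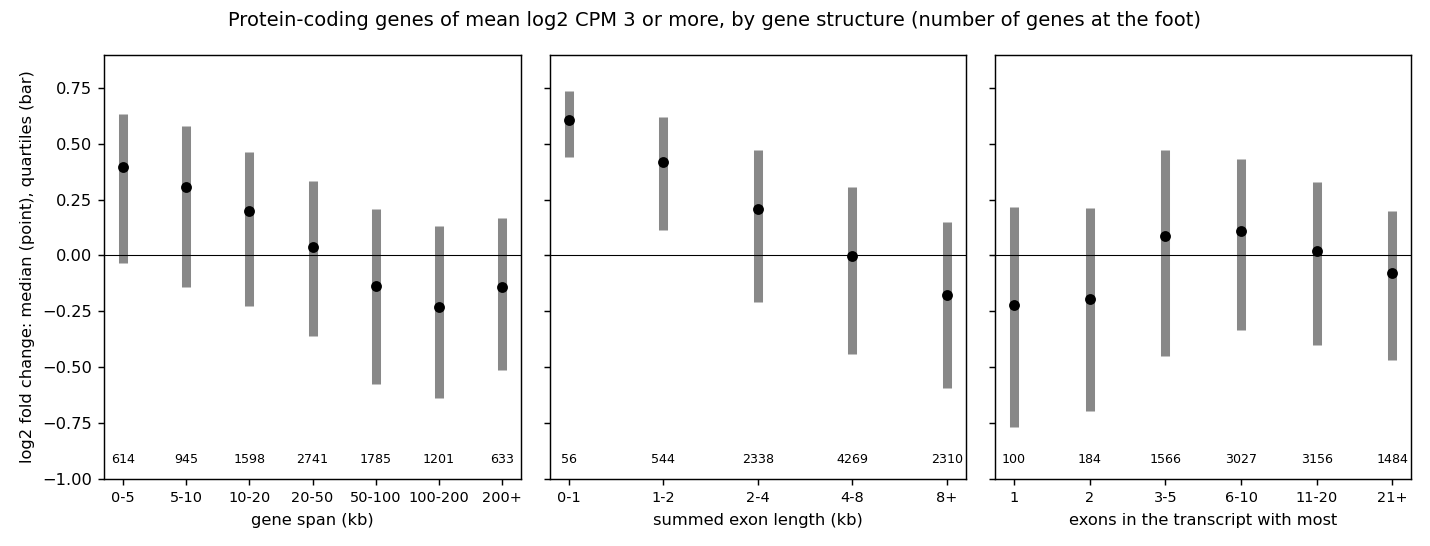
Median log2 fold change of AT7519 against DMSO (point) with quartiles (bar) for protein-coding genes with a mean log2 CPM of 3 or more, by gene span in kb (left), summed exon length in kb (middle) and number of exons in the transcript with most (right). The number of genes in each class stands at the foot, and the median falls from 0.40 under 5 kb to -0.23 at 100 to 200 kb.

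Some strongly counted genes stayed close to 0 on this scale. For 644 genes the 95% interval of the log2 fold change lay within a 1.2-fold change either way. The 6 with the most counts were CLTC, the clathrin heavy chain (763 and 766 against 851 and 784 CPM, 0.10, SE 0.07, overlaps PTRH2), EIF3A, a scaffold of initiation factor 3 (702 and 724 against 804 and 710.1 CPM, 0.09, SE 0.08, overlaps NANOS1), KPNB1, an import receptor (657 and 702 against 755 and 711 CPM, 0.11, SE 0.07), ACACA, acetyl-CoA carboxylase (651 and 597 against 671 and 647 CPM, 0.08, SE 0.08, overlaps C17orf78), PRRC2A (0.03, SE 0.10, overlaps SNORA38) and DYNLL2, a dynein light chain (0.04, SE 0.09). By library size alone all 6 had negative values, from -0.14 to -0.22. A value near 0 is thus a place on the scale set by the normalization, not an unchanged amount of RNA.

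The response with scrambled siRNA was set beside that in the other arms by a test of the difference itself. Against the mean of the siRNA arms, 2 of 23830 genes (0.00839%) passed, both higher there than in Scr and 0 lower, by edgeR's quasi-likelihood test. At an unadjusted p under 0.05 there were 819 higher and 434 lower, and DESeq2 called 39 and 10. This count depended on how the replicate numbers were treated. Within each agent, samples of the same number deviated from their group means together across the Scr and siRNA arms (r from 0.60 to 0.73 over genes with a mean log2 CPM of 3 or more), which the fit behind the 2 calls does not use. With the number as a block within each agent, an alternative chosen after seeing the data and fitted to the 12 Scr and siRNA samples with 4 residual degrees of freedom, 574 of 23045 genes were higher (2.49%) and 261 lower (1.13%), 3.62% in all, against 2 and 1 in the same samples with no block. The labels do not say what a shared number stands for. PUDP, the gene of a pseudouridine phosphatase, stood at 16.4 and 16.4 CPM under DMSO and 7.83 and 6.4 CPM with AT7519 in Scr (-1.21, SE 0.12) and at 26.9 and 28.3 CPM under DMSO and 26.6 and 28.3 CPM with AT7519 in siOGT1. In siOGT2 it stood at 20.1 and 20.4 CPM under DMSO and 15.7 and 17.1 CPM with AT7519. DENND6A, which encodes an exchange factor for Rab14, stood at 48.5 and 51.9 CPM under DMSO and 17.4 and 15.4 CPM with AT7519 in Scr (-1.61, SE 0.10). In siOGT1 it stood at 67.9 and 61.3 CPM under DMSO and 42.2 and 43.7 CPM with AT7519, and in siOGT2 at 54.9 and 53 CPM under DMSO and 29.3 and 27.7 CPM with AT7519. The difference from Scr was 1.05 (SE 0.15) for PUDP and 0.86 (SE 0.12) for DENND6A, each with an adjusted p of 0.00865, so the fall in Scr was the larger. Both passed with the block within agent, at an adjusted p of 5.56e-09 for PUDP and 1.1e-09 for DENND6A. In the fit with no block neither passed without Scr DMSO replicate 1, DMSO replicate 2 or AT7519 replicate 2 (0 genes called in each case), and without AT7519 replicate 1 there were 3 calls.

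Against the OSMI2 arm 178 genes (0.747%) differed, 20 with a higher response there than in Scr (0.0839%) and 158 with a lower one (0.663%). The count rested on single libraries, with 37 without Scr DMSO replicate 1, 39 without DMSO replicate 2, 77 without AT7519 replicate 1 and 360 without AT7519 replicate 2. BTG2, an antiproliferative immediate-early gene, fell in Scr (85.6 and 74.9 against 49.2 and 48.7 CPM, log2 fold change -0.71, SE 0.24, adjusted p = 0.031), a call lost without any 1 of the 4 Scr samples (adjusted p of 0.0631 to 0.152). In OSMI2 BTG2 stood at 89.1 and 65 CPM under DMSO and 17.4 and 9.03 CPM with AT7519, and the difference (-1.80, adjusted p = 0.0471) passed in none of the fits that left out a Scr sample. For OSMI2 the dose, the duration and any accompanying siRNA are unstated in the labels, so that arm may differ from Scr in more than OGT activity.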

How the data were processed

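Raw counts per gene were deposited by the authors as 1 table of 16 samples. Per the submitters' processing notes, tools included STAR, HTSeq and DESeq2 and the build was hg19 (GRCh37). Tool versions and strand setting: not given in the sources used here. Libraries came from a strand-specific TruSeq kit, per the labels' protocols. Genes were filtered by filterByExpr, scaled by TMM and tested with edgeR 4.0.16 (R 4.3.3) by its quasi-likelihood test, fitted to 8 groups of 2 with 8 residual degrees of freedom and Benjamini-Hochberg adjustment, called under 0.05. The common coefficient of variation was 0.110. limma 3.58.1 (voom) and DESeq2 1.42.0 were alternatives, as was a replicate block within agent. The main fit and that block fit were also run on simulated counts in which few genes changed. For the main fit the samples were simulated without shared deviations. These runs thus do not test the scaling or the calls made here. Gene types, spans and overlaps came from GENCODE on GRCh38, matched by gene ID for 55910 of 60252 genes, and promoters from RefSeq.

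Named were the 12 largest rises and 12 largest falls with a symbol, at a mean log2 CPM from 3 up, with groups that do not overlap and no tested gene overlapping; CDK1, CDK2, CDK4, CDK5, CDK6, CDK7, CDK9, OGT, MYC and MCL1; up to 4 called members of each list with the smallest adjusted p; 6 genes near 0; and 3 genes at each end of a difference between arms. Not every gene so chosen is printed, and some genes are not reported here. Members and lists were chosen with earlier results of these data known.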

Additional observations from a re-analysis of the deposited data

Results flagged for a closer look

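The response to AT7519 differed between arms for the genes below, by edgeR's quasi-likelihood test of the difference itself. The differences share the Scr samples. From the mean of the siRNA arms, 2 genes differed with no replicate block, PUDP by 1.05 and DENND6A by 0.86. In PUDP the response was -1.21 in Scr, -0.01 in siOGT1 and -0.30 in siOGT2. In DENND6A it was -1.61, -0.59 and -0.92 in the same order, so it fell in every arm.

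From OSMI2, 178 genes differed. PPP1R10, which encodes a regulatory subunit of protein phosphatase 1 and overlaps MRPS18B, had a response of -3.56 in Scr and -2.10 in OSMI2, a difference of 1.46 (adjusted p = 0.0499). ZNF75A, which overlaps TIGD7, had -0.64 and 0.21 (difference 0.85, adjusted p = 0.0106). XRCC2, a gene of recombination repair, had -1.44 and -0.64 (difference 0.80, adjusted p = 0.0124). The responses of these 3 genes were higher in OSMI2. Each call was lost in some alternatives. PPP1R10 had an adjusted p of 0.0908 with upper-quartile scaling, 0.117 by library size alone, 0.11 with no low-count filter, 0.199 without Scr DMSO replicate 1, 0.203 without DMSO replicate 2 and 0.149 without AT7519 replicate 1. ZNF75A had 0.0751 without Scr DMSO replicate 1 and 0.0629 without AT7519 replicate 1. XRCC2 had 0.0638 without Scr AT7519 replicate 1 and 0.0855 without DMSO replicate 2.

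Lower responses in OSMI2 included those of BTG2 (-0.71 in Scr and -2.52 in OSMI2, difference -1.80) and VASN (-0.49 and -2.16, difference -1.67, adjusted p = 0.00256, overlaps CORO7). BTG2 was not called with no low-count filter (adjusted p = 0.115), with only the groups compared (0.201) or without any 1 of the Scr samples (0.0901 to 0.232). VASN passed in each of the 4 fits that left out a Scr sample. The fall of VASN in Scr was not called without Scr DMSO replicate 2 (adjusted p = 0.106) or AT7519 replicate 2 (0.292).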

How the results depend on the processing

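By library size alone 3024 genes rose. When lowly counted genes (mean log2 CPM under 3) were left out, 3097 rose and 3549 fell, 63 and 823 of them 2-fold or more. Leaving out 1 Scr sample gave 3952 to 4726 rises and 4557 to 5048 falls. Of calls, 47.0% were rises as reported, 58.7% by upper-quartile scaling and 26.9% by library size alone. The difference between the siRNA arms and Scr was called for 39 genes with no filter, 49 by DESeq2, 10 with the replicate block, 835 with the replicate block within each agent (added after seeing the data) and 0 to 3 without 1 Scr sample. For OSMI2 the counts were 551 with no filter, 478 by DESeq2, 285 with only the groups compared, 376 with the replicate block and 37 to 360 without 1 Scr sample. The labels do not say that a number pairs the samples, so the numbers were not taken as pairs for AT7519 against DMSO. Same-numbered Scr samples did not deviate together between the agents (r = 0.0402), whereas those of OSMI2 did (r = 0.43). Within an agent, same-numbered samples of the Scr and siRNA arms deviated together (r of 0.60 to 0.73). The spread of the 16 samples thus rests on fewer independent deviations than its degrees of freedom count. With the 4 Scr samples alone 5318 genes rose and 5455 fell. The replicate block gave 5447 rises and 6123 falls and changed no call of a named gene. Of 220 named genes, 2842 values under the alternatives kept direction and side of the threshold in 2781 cases, lost the call in 38, gained it in 6 and turned sign in 17, all 17 in genes not called as reported. By library size alone the values were CDK2 -0.10, OGT -0.16, MYC -0.17, CLTC -0.15, EIF3A -0.16, KPNB1 -0.14, ACACA -0.17, PRRC2A -0.22 and DYNLL2 -0.21. With the level filter they were PRRC2A -0.027 and DYNLL2 -0.017. Without 1 Scr sample the values spanned -0.065 to 0.26 (OGT), -0.0081 to 0.15 (MYC), -0.057 to 0.14 (PRRC2A) and -0.024 to 0.13 (DYNLL2). The cause of these changes was not tested. Genes called alike in the reported fit and under all alternatives but the level filter and the minimum fold numbered 2504 raised and 3694 lowered.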
